A study of Mus musculus with 6 samples.

Results

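Interferon-stimulated genes were compared between RNA of the cells left on the inner surface of the mouse femoral shaft (endosteal) and RNA of the cells washed out of those shafts (central). The set was a list of 31 interferon-induced effectors, sensors and regulators, taken by symbol. Of the 31, 29 had a probe set that named that gene alone, and these 29 are described below among 18193 genes measured. Isg15 was covered only by a probe set that also names a second gene, and Ifi44 had no named probe set, so neither is given a value. The animals were 3 male C57BL/6 mice of 8 weeks, all injected with saline into the peritoneum. No group received an interferon or an infection. There were 3 central arrays and 3 endosteal arrays, lettered A, B and C in each region, and the design gives 3 mice for the 6 arrays, which means that each animal gave both kinds of RNA. The labels do not say that a letter marks 1 mouse. Central marrow was washed out in buffered saline with serum and pelleted before lysis, whereas endosteal cells were lysed in place in the emptied shaft, from which muscle, periosteum and metaphyses had been removed by hand. The endosteal fraction is therefore whatever the flush left behind, a mixture of cells that was not sorted.

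Interferons are secreted proteins that cells release on sensing viral nucleic acid or other danger signals. Type I interferons bind the receptor of Ifnar1 and Ifnar2, which through the kinases Jak1 and Tyk2 activates a complex that holds Stat2 and Irf9. This complex binds the interferon-stimulated response element (ISRE) in the promoters of its targets, whereas interferon gamma acts mainly on the gamma-activated sequence (GAS). Resting haematopoietic cells transcribe many of these targets at a tonic level, and type I interferon is known to drive dormant haematopoietic stem cells into cycle.

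Promoter stretches of 9 members are shown to let both elements be seen in the genes whose values follow. Oas3 and Samhd1 were 2 of the 3 genes called lower, and the other 7 come from role groups whose values follow, with no RNA sensor and not Usp18 among them. Each stretch lies before the transcription start, is written 5′ to 3′ on the strand of the gene, and comes from RefSeq on GRCm38.p6. Capitals mark matches to GAAANNGAAA or its reverse complement TTTCNNTTTC, taken here as the ISRE core, or, for Irf1 and Samhd1, to TTCNNNGAA, the GAS core, which is its own reverse complement. Adjoining ISRE matches can overlap and then share bases.
Oas3, chr5:120777700-120777759, minus strand: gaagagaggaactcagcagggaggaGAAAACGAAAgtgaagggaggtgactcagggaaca
Oas1a, chr5:120907526-120907570, minus strand: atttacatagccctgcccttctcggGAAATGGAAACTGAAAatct
Ifit1, chr19:34640760-34640838, plus strand: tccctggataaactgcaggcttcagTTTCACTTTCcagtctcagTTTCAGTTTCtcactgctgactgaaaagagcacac
Ifit3, chr19:34583348-34583441, plus strand: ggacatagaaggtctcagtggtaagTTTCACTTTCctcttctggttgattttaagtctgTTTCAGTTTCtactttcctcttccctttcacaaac
Stat2, chr10:128270251-128270310, plus strand: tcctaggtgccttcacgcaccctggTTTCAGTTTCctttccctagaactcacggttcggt
Rsad2, chr12:26456538-26456597, minus strand: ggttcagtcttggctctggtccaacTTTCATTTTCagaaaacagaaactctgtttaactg
Gbp2, chr3:142620579-142620638, plus strand: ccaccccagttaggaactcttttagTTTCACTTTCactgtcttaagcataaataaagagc
Irf1, chr11:53769899-53769957, plus strand: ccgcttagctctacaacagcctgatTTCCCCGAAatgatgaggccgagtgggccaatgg
Samhd1, chr2:157135298-157135346, minus strand: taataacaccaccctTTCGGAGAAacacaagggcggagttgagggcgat

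Promoter windows of 250 bases before to 50 after the start were listed for 24 of the 31 genes, as 28 windows. The ISRE letters, on both strands, were found in 13 of these 28 windows (46.4%) and in 3.44% of all 32851 windows of that length, and the GAS letters in 7 of 28 (25%) and in 8.30% of all. The ISRE-matched windows belonged to 13 genes. Ifit1 had matches that began 104 and 85 bases before the start, Ifit3 at 156 and 122, and Oas3 a single one at 75. The letters say nothing on use of the site in these cells. Among measured genes with a listed window, the 12 with an ISRE match had a median log2 change of -0.39 between regions. The 10 without one had a median of -0.61, and the difference was not tested. Having no match means only that these exact letters did not occur in the window. The matches of Ifih1, Ddx58 and Ifitm3, counted among the 12, lay after the start.

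Signals of these genes were mostly lower in endosteal RNA. Of 29 genes, 3 were called lower and 0 higher (limma, adjusted p under 0.05 over all genes), namely the transcription factor Irf7, the nucleotide synthetase Oas3 and the nucleotide hydrolase Samhd1. The call rate over all 18193 genes was 3.97% for lower and 7.74% for higher, so 3 of 29 (10.3%) stands beside 3.97%. Of the genes above the median level, where 28 of the 29 lay, 6.96% were called lower in the same fit. At an unadjusted p under 0.05, 10 genes were lower and 0 higher, where 2060 of all 18193 genes were lower and 3225 higher. Of the 9096 genes above the median level, 1761 were lower at that p. The mean was lower in endosteal RNA for 24 of 29 genes, and the median log2 change was -0.53, where the median of all genes was 0.10. The 3 endosteal arrays lay wholly below the 3 central arrays for 14 of 29 genes, against 15.4% of all genes, and wholly above for 0 of 29, against 22.1%. Among the 9096 genes above the median level, 26.9% had endosteal arrays wholly below.

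The transcription factors that carry the interferon signal to the promoters were the role group with the clearest separation, with endosteal arrays below central arrays for all 4 measured. Irf7, the factor that amplifies type I interferon production, stood at 2071, 1844 and 1721 on the central arrays, against 1072, 780.2 and 614 on the endosteal ones (signals here and below follow the order A, B, C). Every endosteal value was below the lowest central one. The log2 change was -1.21 (SE 0.23, adjusted p = 0.0301), which is a 2.31-fold difference. With the array letter as a replicate block, its adjusted p was 0.0690. Without central A, B or C it was 0.0981, 0.0953 and 0.0802, and without endosteal B or C 0.0838 and 0.0571. The change itself ran from -1.48 to -1.02 over the 14 alternatives.

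Irf9, the DNA-binding subunit of the type I complex, had central signals of 2298, 2033 and 1881 and endosteal signals of 1264, 1349 and 1511, with no overlap between regions (log2 change -0.58, SE 0.14, adjusted p = 0.0556). Irf1, a factor strongly induced by interferon gamma and the gene whose promoter carries the GAS letters above, had central signals of 2331, 2023 and 1915 and endosteal signals of 1464, 1470.2 and 1291 (log2 change -0.56, SE 0.14, adjusted p = 0.0564). Neither passed the threshold, although the regions did not overlap for either. Stat2, a subunit of the type I complex, had 558, 613 and 486 in central and 411, 426 and 329 in endosteal RNA (log2 change -0.49, adjusted p = 0.113). The second, dimmer probe set of Stat2 showed a wider gap, with 304, 304 and 307 on central and 165, 100.3 and 121 on endosteal arrays.

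The 2′-5′ oligoadenylate synthetases sense double-stranded RNA and make the second messenger that switches on RNase L, while the Oasl genes encode related proteins. All 5 measured members had lower means in endosteal RNA, with 1 called, and the direction of Oas1a turned when central A was left out (0.10). Oas3 had central signals of 2438, 1701.5 and 1741 and endosteal signals of 506, 560.4 and 306. The highest endosteal value was far below the lowest central one, and the log2 change of -2.09 (SE 0.28, adjusted p = 0.0130) was a 4.24-fold difference. It was the lowest log2 change of the 9096 genes above the median level, and it ranked 9 from the bottom among all 18193 genes. Oas3 kept its call in 13 of 14 alternatives, including every one that left out an array (adjusted p from 0.0238 to 0.0489). The exception was the replicate block, with an adjusted p of 0.0585.

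Oasl2 showed a gap of the same kind as Irf7 with more spread between arrays. Its central signals were 3489, 1821 and 1759.6, and its endosteal signals 1329, 824 and 828, so that the regions did not overlap but central A stood at nearly double the other central arrays. The log2 change was -1.19 with an SE of 0.34 (adjusted p = 0.0808), and with the replicate block the SE fell to 0.14 (adjusted p = 0.0617). Oas2 went from 1474, 812 and 633 in central to 756, 527 and 402 in endosteal RNA. Here the regions overlapped because endosteal A exceeded central C (log2 change -0.73, SE 0.38, adjusted p = 0.274). Oasl1 and Oas1a changed by -0.55 and -0.19 (adjusted p = 0.261 and 0.704).

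The cytosolic receptors that detect viral RNA did not move together. Ifih1 (MDA5, which recognises long double-stranded RNA) had 1207, 1001 and 908 in central and 1267, 1298 and 1119 in endosteal RNA, with overlapping arrays (log2 change 0.24, adjusted p = 0.364; -0.024 when arrays were centred on their medians). Ddx58 (RIG-I, which recognises RNA with 5′ triphosphates) had 1815, 1336 and 1236 in central and 1082, 1128 and 979 in endosteal RNA, with no overlap (log2 change -0.44, adjusted p = 0.187). Dhx58 (LGP2, a regulator of both) changed by -0.36 and Zbp1, a sensor of Z-form nucleic acid that can trigger necroptosis, by -0.24 (adjusted p = 0.238 and 0.619). The probe sets of Zbp1 pointed in opposite directions, since its dimmer one changed by 0.61.

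IFIT proteins bind foreign RNA ends and block its translation. Ifit3 had 795, 444 and 452 in central and 430.2, 298 and 325 in endosteal RNA, which did not overlap (log2 change -0.62, SE 0.28, adjusted p = 0.212). Ifit1 had 854, 495 and 426 in central and 379, 462 and 299 in endosteal RNA, with overlap (log2 change -0.58, adjusted p = 0.282). Ifit2 changed by -0.16 (adjusted p = 0.651). For Ifit1 and Ifit3 the spread came largely from central A, which stood well above central B and C. Usp18, the protease that removes ISG15 from proteins and also blocks type I receptor signalling, had 1443, 903 and 786 in central and 863, 694 and 556 in endosteal RNA (log2 change -0.53, SE 0.29, adjusted p = 0.286). Its endosteal A exceeded central C.

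The Mx and guanylate-binding GTPases showed no common direction. Mx1, an antiviral GTPase for which C57BL/6 mice are known to carry a defective allele, had 462, 295 and 373 in central and 339.6, 136 and 184 in endosteal RNA (log2 change -0.81, SE 0.35, adjusted p = 0.203). Mx2 had signals near background on several arrays, from 14.4 to 66.7 in central and from 9.78 to 220.0 in endosteal RNA, so that its log2 change of 0.69 (SE 0.88) carried little information and was -0.18 without endosteal A. Gbp2 and Gbp3, which attack the vacuoles of intracellular pathogens and respond strongly to interferon gamma, changed by 0.11 and -0.14 (adjusted p = 0.792 and 0.803). The sign of Gbp2 turned after centring (-0.16), with the mean of its probe sets (-0.021) and without central B (-0.055), and that of Gbp3 without endosteal C (0.074).

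Among membrane effectors, Ifitm1 and Ifitm3, which block virus entry at membranes, and Rsad2 (viperin, an enzyme that makes a chain-terminating nucleotide) had endosteal arrays wholly below central ones. Ifitm1 had 5688, 2606 and 2947 in central and 2395, 1728 and 1955 in endosteal RNA (log2 change -0.81, SE 0.33, adjusted p = 0.177). Ifitm3 had 28499, 18941 and 19534 in central and 18794, 17047 and 16018 in endosteal RNA (log2 change -0.35, adjusted p = 0.316). On both genes central A was the highest of the 6 arrays. Rsad2 had 23674, 24694 and 21061 in central and 12944, 20024 and 15828 in endosteal RNA for its brightest probe set (log2 change -0.53, SE 0.20, adjusted p = 0.142). Bst2 (tetherin, which holds budding virus to the cell and also marks plasmacytoid dendritic cells) had 968, 767 and 646 in central and 1048, 1003 and 709.6 in endosteal RNA, with overlap (log2 change 0.21, adjusted p = 0.602; -0.061 after centring).

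Samhd1, which depletes the nucleotides that retroviruses need, had 5292, 3964 and 3673 in central and 2577, 2554 and 2435 in endosteal RNA. The 3 endosteal values lay close together and below every central value (log2 change -0.75, SE 0.17, adjusted p = 0.0482). This call was near the threshold. It was lost with pseudocount 1 (0.0611), quantile normalisation (0.0512) and the mean of all probe sets (0.109). It had an adjusted p of 0.102 with the replicate block and was lost without any 1 array, with adjusted p of 0.0863, 0.116 and 0.0806 when the central arrays were left out in turn and 0.101, 0.109 and 0.110 for the endosteal arrays. Xaf1, a promoter of apoptosis, had 1235, 1510.1 and 1101 in central and 949, 713 and 778 in endosteal RNA (log2 change -0.64, SE 0.18, adjusted p = 0.0797). Parp14, a mono-ADP-ribosyltransferase, had 1772, 1505 and 1583 in central and 1225, 996 and 1073 in endosteal RNA (log2 change -0.56, SE 0.14, adjusted p = 0.0612). Neither overlapped between regions and neither passed. With the mean of its probe sets Parp14 changed by -0.28 (limma, adjusted p = 0.312). Ifi35, a leucine zipper protein, differed by less than its spread (log2 change 0.10, SE 0.13; -0.17 after centring).

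**Figure D1:**
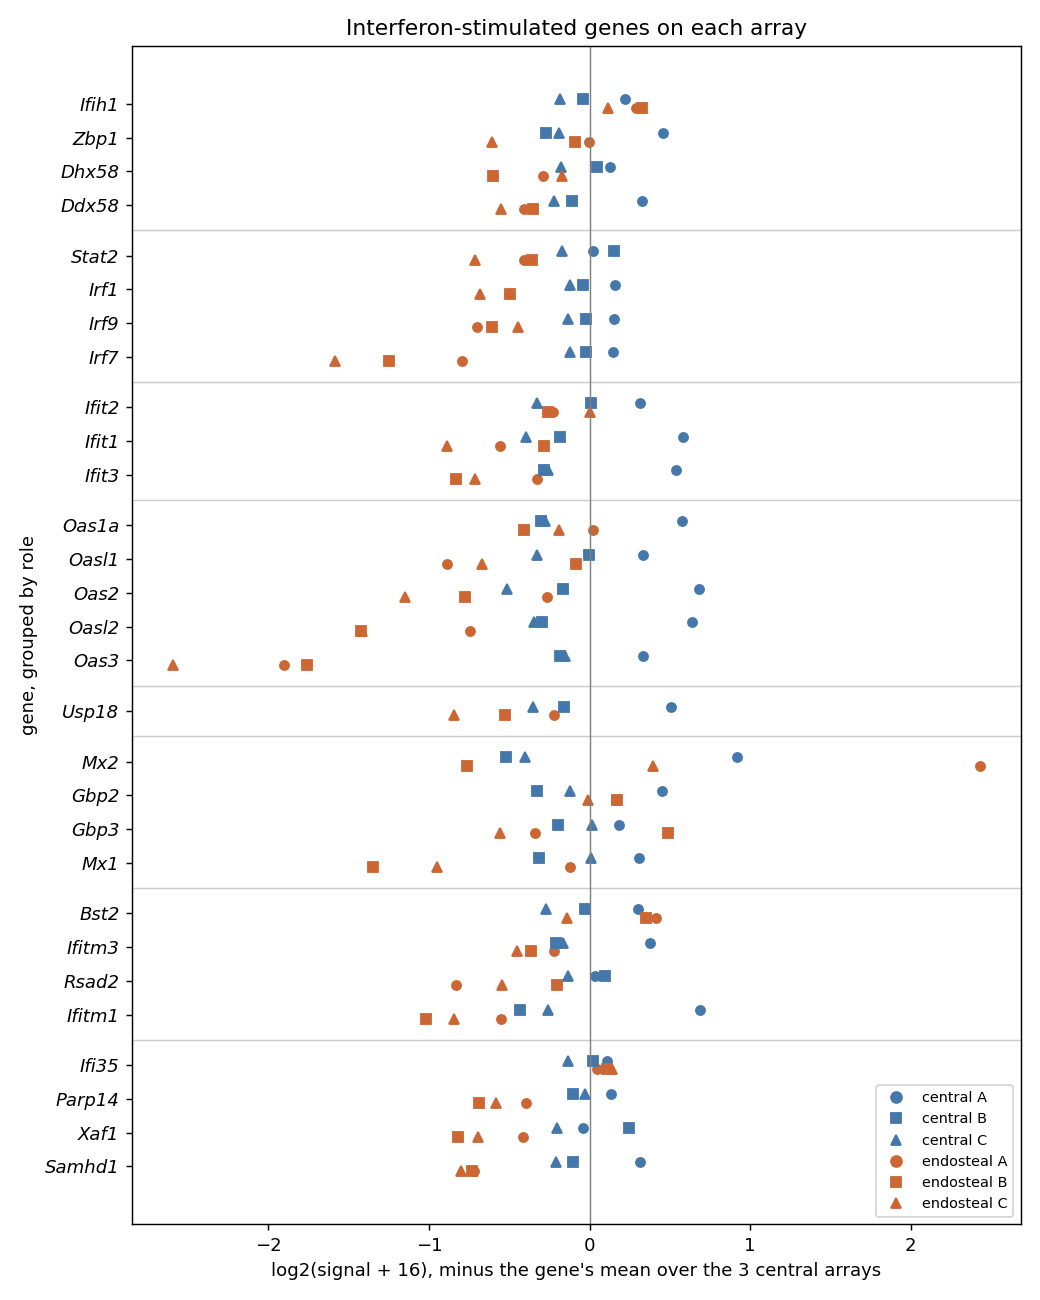
Signal of the 29 genes on each array, as log2(signal + 16) minus the gene's mean over the 3 central arrays, grouped by role. Blue symbols are central and orange symbols endosteal arrays, with circles for A, squares for B and triangles for C. Endosteal symbols lie wholly to the left of central ones for 14 genes, and Oas3 lies farthest left.

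**Figure D2:**
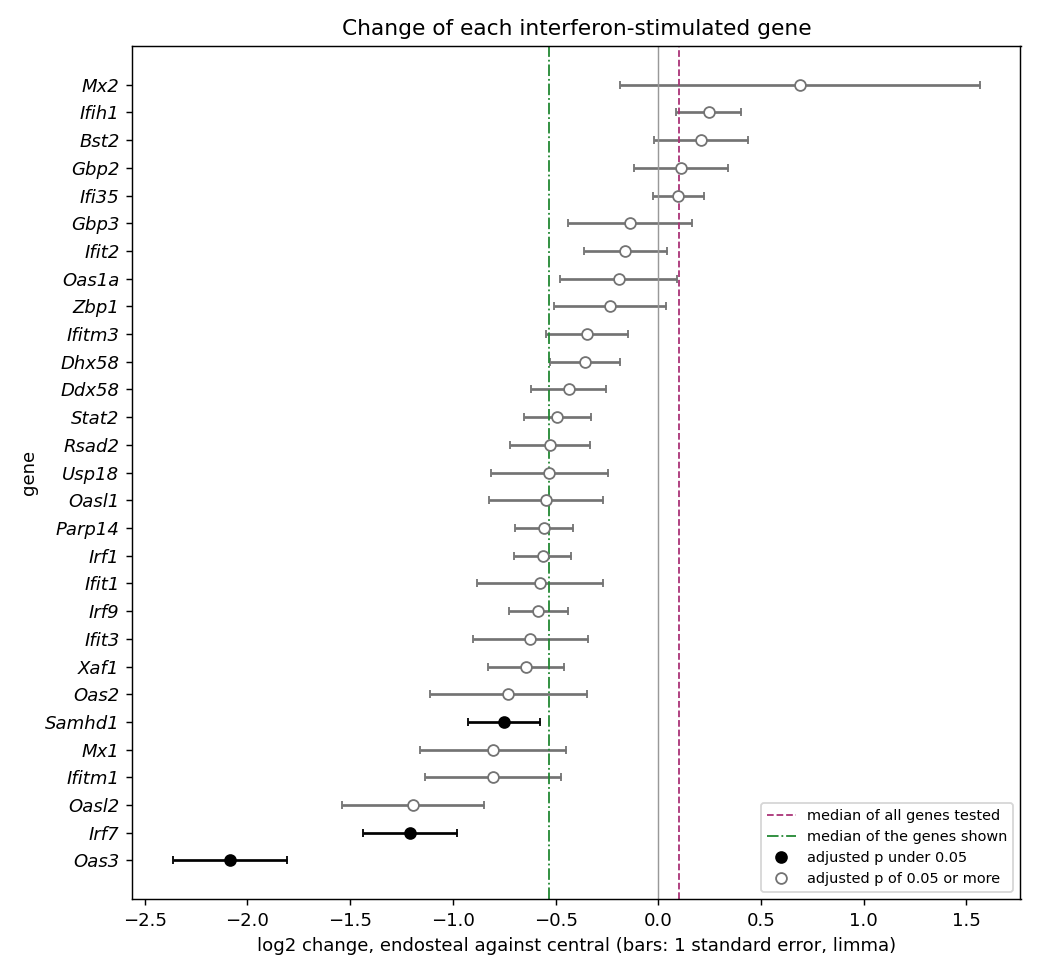
Log2 change between regions for each gene with 1 standard error from limma over 6 arrays. Filled points are the 3 genes with an adjusted p under 0.05. The median of the genes shown (-0.53) lies below that of all genes (0.10).

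Several of these genes had more than 1 probe set, which gave a second reading of the same transcripts. The 29 genes had 46 probe sets, of which 27 belonged to 10 genes with several. All 3 probe sets of Rsad2 had endosteal arrays wholly below central ones, with changes of -0.53, -0.84 and -1.22, and so had both probe sets of Stat2, with -0.49 and -1.18. Of the 5 probe sets of Samhd1, both bright ones were wholly below (-0.75 and -1.28), while the dimmer ones overlapped, with changes from -0.57 to 0.07. Each probe set was also tested on its own by limma, an alternative chosen after the data were seen. Of the 46 probe sets, 5 were called lower and 0 higher, where 2.08% of all 34945 probe sets were called lower. The 5 belonged to Oas3, Irf7, Samhd1 (-1.28, adjusted p = 0.0136), Rsad2 (-1.22, adjusted p = 0.0274) and Stat2 (-1.18, adjusted p = 0.0298). For the last 3 the called probe set was not the brightest of its gene. Probe sets of 6 genes differed in sign, namely Dhx58, Gbp2, Ifi35, Parp14, Samhd1 and Zbp1. The dimmer probe set of Parp14 overlapped between regions (0.0031), and a dimmer one of Dhx58 changed by 0.22. The dimmer probe set of Zbp1 had endosteal arrays wholly above central ones, and 1 of Ifi35 had them wholly below (-0.17). Both dimmer probe sets of Ddx58 overlapped between regions (-0.54 and -0.041).

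The genes also differed between arrays of the same region. Central A carried the highest of the 3 central signals for 26 of 29 genes, where it did so for 31.7% of all genes and 35.4% of genes above the median level. Relative to the mean of its region, the median of the 29 genes was 0.32 on central A, -0.11 on central B and -0.19 on central C on the log2 scale, whereas the median of genes above the median level stayed between -0.01 and 0.01 on these arrays. Endosteal A was the highest endosteal array for 15 of 29 genes (34.2% of all genes), with medians of 0.12, 0.00 and -0.12 for A, B and C. For 14 of 29 genes A was the highest array in both regions, against 13.0% of all genes. The same letter thus had the highest median in both regions, and C the lowest.

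**Figure D3:**
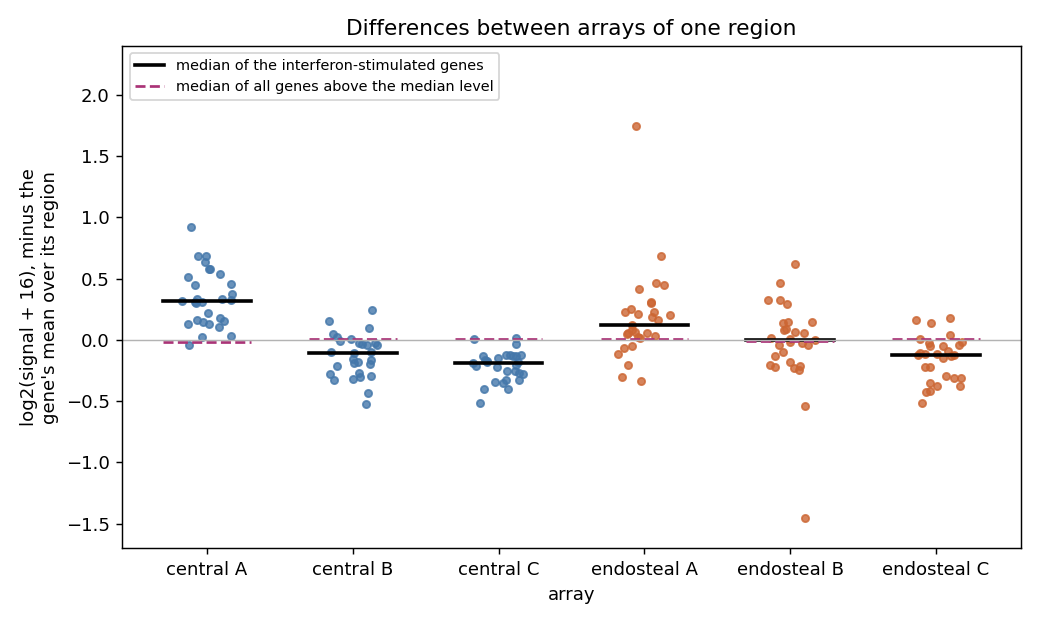
Each point is 1 of the 29 genes on 1 array, as log2(signal + 16) minus the gene's mean over the 3 arrays of that region. Black lines are medians of the 29 genes and dashed lines medians of the 9096 genes above the median level. Central A stands above the other central arrays by its black line (0.32) and not by its dashed line.

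Because central A was high, the size of the regional difference moved with it. Without central A the median log2 change of the 29 genes was -0.36 in place of -0.53, 23 of 29 means were still lower in endosteal RNA, and 14 genes, against 19% of all genes, had endosteal arrays wholly below the remaining central ones. Of the 3 calls, Oas3 alone passed without it. In the same comparison 3 genes, Ifih1, Gbp2 and Ifi35, had endosteal arrays wholly above the remaining central ones, against 25.7% of all genes. The log2 change of 15 of the 29 genes moved by over 1.5 times, and for 11 of these it had been negative and came nearer to 0 or turned. Without central A the changes of Ddx58, Ifit1, Ifit3 and Oas2 were -0.27, -0.28, -0.36 and -0.39. Those of Usp18, Ifitm1 and Ifitm3 were -0.27, -0.46 and -0.16, and those of Zbp1 and Ifit2 were -0.0064 and -0.0012. Between arrays of the same letter the median difference of the 29 genes was -0.60 (A), -0.37 (B) and -0.46 (C), where over all genes it was 0.11, 0.088 and 0.065. Endosteal RNA was lower within all 3 letters for 19 of 29 genes and higher within all 3 for 2, where the shares over all genes were 21.5% and 31.1%.

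The replicate block gave a smaller SE for 22 of 29 genes, as it did for 55.6% of all genes. The SE of Oas2 went from 0.38 to 0.15, that of Usp18 from 0.29 to 0.15 and that of Ifit3 from 0.28 to 0.15. With the block, 15 of the 29 genes had an unadjusted p under 0.05, all lower, in place of 10. The share of all genes at that p was not counted with the block. After adjustment 0 genes were called, among the members and among all genes lower in endosteal RNA (0%), and the members' adjusted p ran from 0.0585 to 0.817. Both fits used limma, and the block leaves fewer degrees of freedom.

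Among genes above the median level tested alone, 10 of the 28 tested members were called lower, where 18.9% of these genes were. They were Irf1, Irf7, Irf9, Stat2, Oas3, Oasl2, Rsad2, Parp14, Samhd1 and Xaf1. Centring each array on its median moved the median of all genes from 0.10 to -0.17. With that scaling 9 members were called lower and 0 higher, and the calls over all genes went from 1409 higher and 723 lower to 941 higher and 1975 lower.

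The interferons themselves and their receptors were examined from a list of 20 genes, of which 16 were measured. Of these, 1 was called lower and 0 higher (median log2 change 0.00), where 3.97% and 7.74% of all genes were. Ifnb1, the gene of interferon beta, had mean signals of 50.1 in central and 48.9 in endosteal RNA, and Ifng, the gene of interferon gamma, 36.3 and 31.8, which is near background. The subunits of the type I receptor, Ifnar1 and Ifnar2, had means of 945 ± 60.6 and 2106 ± 379 in central and 843 ± 29.4 and 2098 ± 137 in endosteal RNA (SD, n = 3). Their log2 changes were -0.16 and 0.01 (adjusted p = 0.435 and 0.983), and that of Ifnar2 was -0.26 after centring. Those of the interferon gamma receptor genes Ifngr1 and Ifngr2 were 0.23 and -0.17 (adjusted p = 0.532 and 0.756), with -0.044 for Ifngr1 after centring and 0.16 for Ifngr2 without endosteal C. Ifnlr1, the specific subunit of the interferon lambda receptor, fell by 1.14, from 876, 768 and 712 to 336, 308 and 398 (adjusted p = 0.0138).

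Of 17 measured signalling genes and inhibitors, 3 were called lower and 1 higher, with a median of -0.52. The shares of all genes called were 3.97% lower and 7.74% higher, with 6.96% lower above the median level. Endosteal arrays lay wholly below for 12 of the 17, against 15.4% of all genes and 26.9% of genes above the median level. The receptor kinase gene Jak1 fell by 0.52, from 7178 ± 415 to 4980 ± 102 (SD, n = 3). Irf8, which myeloid and dendritic cell lineages require, fell by 0.69, and Ptpn6 (SHP-1, a phosphatase of blood cells) fell by 0.83. Ptpn11 (SHP-2, its broadly expressed relative) rose by 0.56, a change of 0.29 and no call after centring. Of 16 measured nucleic acid sensing genes, 2 were called lower and 1 higher, beside those same shares, with a median of -0.21. Unc93b1, which carries endosomal Toll-like receptors to their compartment, fell by 0.87, and Adar, which edits double-stranded RNA, fell by 0.69. Tlr3, an endosomal receptor for double-stranded RNA, rose by 1.59 (0.94 with pseudocount 64) from a central signal near background (25.2 ± 11.1 to 108 ± 34.1, SD, n = 3).

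Other interferon-induced genes, from a list of 66 of which 55 were measured, did not share one direction. Of these 55, 4 were called lower (7.27%) and 3 higher, with a median of -0.23. Over all genes 3.97% were called lower and 7.74% higher, and 6.96% of genes above the median level were called lower. The calls of this list thus stood near those shares. The largest call was an increase, in Cxcl9, a T cell chemokine typical of interferon gamma responses. Its signals were 192, 176 and 149 in central and 822, 891 and 692 in endosteal RNA. These did not overlap, and the log2 change of 2.12 (SE 0.16, adjusted p = 0.00387) held with the block (adjusted p = 0.0478) and in all of the 14 alternatives. Iigp1, a GTPase that disrupts parasite vacuoles, rose by 1.22 from 499, 399 and 405 to 1074, 1159 and 876 (adjusted p = 0.0141). Lgals3bp, a secreted glycoprotein, rose by 0.56, a change of 0.30 and no call after centring. The lymphocyte growth regulator Slfn1 fell by 1.30, but with the mean of its probe sets its change was -0.12 (adjusted p = 0.705). The chemokine Ccl5 fell by 0.86, the membrane protein Ifitm6 by 0.80 and the nuclear body organiser Pml by 0.67.

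Most of these 15 calls were lost whichever array was left out. Calls over all genes fell as well in those fits, from 1409 higher and 723 lower to 502 to 890 and 89 to 297. Cxcl9 was the only one that kept its call with the block. Leaving out 1 array kept 3, 1 and 2 of the 15 calls for the central arrays in turn and 4, 3 and 5 for the endosteal arrays, with Cxcl9 kept each time. Ifnlr1 fell in each of these fits and was lost only without central B and with the block.

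A pair of gene families, put together after the values were seen, is given here as values with no test of a difference between them. All 7 measured Oas and Oasl genes, Oas1b and Oas1c included, had lower means in endosteal RNA (median -0.73), except that Oas1a turned without central A. Of 9 GTPases of the GBP and IRG families, 6 had higher means (median 0.37), where 10431 of all 18193 genes had. The mean of Gbp2, 1 of the 6, turned in 3 of the 14 alternatives. Endosteal arrays lay wholly above central ones for 4 of the 9 (Iigp1, Igtp, Ifi47 and Gbp7), against 22.1% of all genes. They lay wholly below for 1 (Irgm2), against 15.4%. Iigp1 alone of the 9 was called, as higher, where 7.74% of all genes were called higher. Igtp, another GTPase of parasite vacuoles, had 1718, 1893 and 1801 in central and 2200, 2919 and 2175 in endosteal RNA (log2 change 0.41, adjusted p = 0.160).

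**Figure D4:**
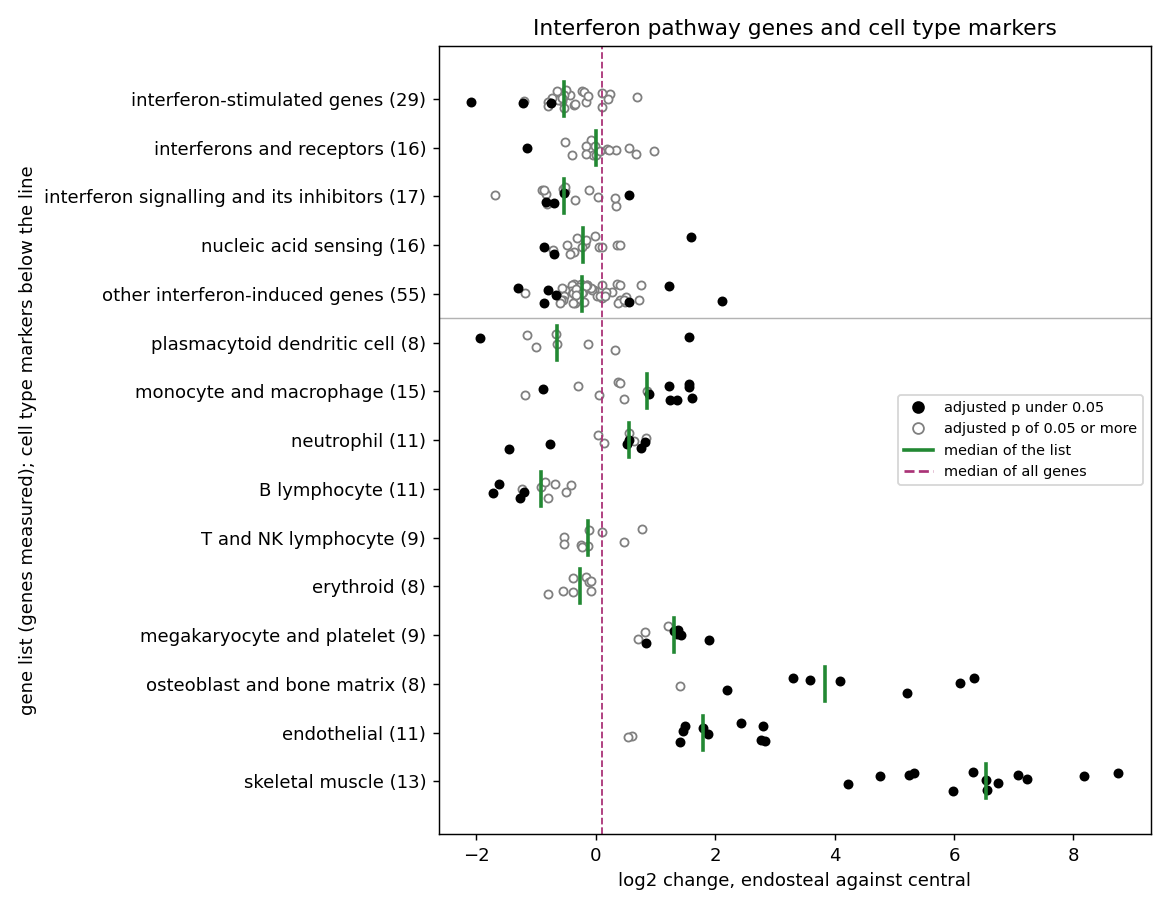
Log2 change of every measured gene in the interferon lists (above the line) and in the cell type marker lists (below it), with the number of genes in brackets. Filled points have an adjusted p under 0.05, green bars are list medians and the dashed line is the median of all genes (0.10). The 29 interferon-stimulated genes centre on -0.53, the B lymphocyte markers on -0.91 and the monocyte and macrophage markers on 0.86.

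Markers of cell types differed between the regions beside these genes. In such bulk RNA fewer cells of a type and less RNA per cell cannot be told apart. The calls of each marker list stand beside 3.97% of all genes called lower and 7.74% called higher. Of 8 measured plasmacytoid dendritic cell markers, 1 was called lower (Spib, -1.93) and 1 higher (Cox6a2, 1.57, which muscle also transcribes). Their summed signal was 9462 to 11961 on central and 5824 to 7137 on endosteal arrays. The lower sum rested on Spib, with means of 6345 in central and 1684 in endosteal RNA. Without Spib the endosteal sums were not lower, with Cox6a2 (means of 602 in central and 1899 in endosteal RNA) still counted. By number, 6 of the 8 had lower means in endosteal RNA and 2 higher. Of 11 B lymphocyte markers, 4 were called lower and 0 higher, with sums of 21829 to 34178 and 8798 to 16681. Of 15 monocyte and macrophage markers, 7 were called higher and 1 lower. Those higher were C1qa, C1qb, C1qc, Mrc1, Vcam1, Axl and Spic. The monocyte receptor gene Ccr2 fell by 0.88, and Cx3cr1 changed by -1.18 with no overlap (limma, adjusted p = 0.0895). Of the 15, 12 had higher means in endosteal RNA and 3 lower, Mpeg1 (-0.30) among the latter, and Adgre1 changed by 0.05. Which cells gave these signals was not tested. The summed signals of the 15 were 45056 to 48799 and 53337 to 63691. Of 11 neutrophil markers 4 were called higher and 2 lower (400189 to 445145 and 589247 to 607038). The list medians were -0.65 for plasmacytoid dendritic cells, -0.91 for B lymphocytes, 0.86 for monocytes and macrophages and 0.55 for neutrophils. No marker of these 4 lists was at 0 on any array, and the lowest mean signals were those of Cd209d (163), Pax5 (159), Spic (642) and Cxcr2 (1678) in the same order. T and NK lymphocyte and erythroid markers had 0 calls by limma out of 9 and 8, with 1 and 2 lower and 1 and 0 higher at an unadjusted p under 0.05. Their medians were -0.13 and -0.27, with lowest mean signals of 107 (Prf1) and 3536 (Epb42). Sums were 3483 to 4467 and 104246 to 121918 in central and 3933 to 5286 and 73026 to 104158 in endosteal RNA. The T and NK sums leaned on Nkg7, with means of 1747 in central and 2974 in endosteal RNA. Without Nkg7 the T and NK sum of every endosteal array lay below that of every central array. By number, 6 of the 9 T and NK markers had lower means in endosteal RNA and 3 higher.

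Markers of muscle, bone, vessels and megakaryocytes had higher sums on every endosteal array than on any central one. The share of all genes called higher was 7.74%. Called higher were 13 of 13 skeletal muscle genes (sums of 1006 to 1480 in central and 82737 to 162446 in endosteal RNA), 7 of 8 osteoblast and bone matrix genes, 9 of 11 endothelial genes and 6 of 9 megakaryocyte and platelet genes. With the replicate block 11 muscle and 4 bone matrix genes were called (limma), and 0 genes of the other 8 marker lists, whose lowest adjusted p was 0.0521. Bone matrix and vessel markers were thus present in the RNA labelled endosteal, and so were muscle markers although muscle had been removed. Medians of these 4 lists were 6.53, 3.83, 1.80 and 1.30. Summed signals lay at 1586 to 2085 (central) and 63797 to 78844 (endosteal) for bone matrix, at 1567 to 2469 and 6141 to 6378 for endothelium, and at 29476 to 56433 and 102805 to 120472 for megakaryocytes and platelets. Their lowest mean signals were those of Myh2 (807), Ifitm5 (171), Clec14a (138) and Treml1 (1955), in the order of the lists. Marker sums of the arrays lettered A differed from those of B and C as well, and what this means for their cells was not tested. Central A had the lowest sums of the central arrays for B lymphocyte (21829) and megakaryocyte and platelet markers (29476) and the highest for monocyte and macrophage (48799) and T and NK markers (4467), and endosteal A had the highest muscle sum. Like central A in its region, endosteal A had the lowest endosteal sums for B lymphocyte (8798) and megakaryocyte and platelet markers (102805). It also had the highest for T and NK markers (5286). Unlike central A, it had the lowest sum of its region for monocyte and macrophage markers (53337). Both A arrays had the lowest erythroid sum of their region (104246 and 73026). The part of cell makeup in the interferon-stimulated genes was not tested.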

How the data were processed

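The authors deposited 1 linear signal intensity for each of 45101 probe sets on 6 Affymetrix mouse arrays. The summarising software is not given in the sources used here. Every array had the same mean signal after trimming 2% at each end (500.0). Between 15.9% and 20.1% of probe sets per array had a signal below 16. Having 3 arrays per region limits the precision. Probe sets naming 1 gene (34945) were taken through the platform annotation, with symbols checked by gene identifier in RefSeq (GRCm38.p6), and each gene was its probe set with the highest mean of log2(signal + 16). That pseudocount of 16 shrinks changes of dim genes, and all log2 changes and folds are on that scale. Levels are not compared between genes.

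The regions were tested by limma 3.58.1 under R 4.3.3 (lmFit and eBayes, region as the only term, two-sided), with Benjamini-Hochberg adjustment over 18193 genes and a threshold of 0.05. The procedure was run on simulated arrays drawn independently, with no shared animal, so that run does not bear on the sharing of mice between regions. The p-values measure the spread between these arrays, which come from 3 mice. Same-letter arrays deviated together by r = 0.05, 0.04 and 0.01 over all genes and 0.26, 0.13 and 0.10 over genes above the median level, and since the animals are shared the replicate block is printed where it ends a call. All measured members are named. Of each pathway list up to 4 called genes per direction with the largest change are named, with the receptor genes, and others only to describe a family, chosen after their values were seen. Alternatives were other pseudocounts (1 and 64), quantile normalisation, median centring, the mean of all probe sets, genes above the median level, the block, an intensity trend and leaving out each array. The members and lists were chosen with earlier results of these data known, so they give no independent support to them. Some genes are left out of the text.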

Additional observations from a re-analysis of the deposited data

How the results depend on the processing

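Over the 14 alternatives the median log2 change of the 29 genes stayed negative, between -0.80 (centring) and -0.36 (without central A), and 0 genes were called higher. The count called lower was 3, and became 7 with pseudocount 64, 9 after centring, 10 among genes above the median level, 10 with an intensity trend, 5 by single probe sets and 0 with the replicate block, and ran from 1 to 2 when an array was left out. Genes with endosteal arrays wholly above went from 0 to 1 after quantile normalisation and ran from 0 to 3 when an array was left out. Over all genes, 1409 were higher and 723 lower. With the block these were 85 and 0, with an intensity trend 2184 and 1690, and without 1 array 502 to 890 and 89 to 297. The lower count was 1106 with pseudocount 64, 1975 after centring and 1722 among genes above the median level. The causes were not tested.

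Signs turned only for genes that were not called. After centring they were Ifih1 (-0.024), Gbp2 (-0.16), Bst2 (-0.061), Ifi35 (-0.17), Ifnar2 (-0.26) and Ifngr1 (-0.044). With the mean of all probe sets they were Zbp1 (0.19), Gbp2 (-0.021) and Ifnar2 (-0.44). When an array was left out they were Oas1a (-0.34 to 0.10), Mx2 (-0.18 to 1.41), Gbp2 (-0.055 to 0.33), Gbp3 (-0.45 to 0.074), Ifngr2 (-0.33 to 0.16) and Ifnar2 (-0.10 to 0.15). Central A stayed the highest central array for 25 to 27 genes with pseudocount 1, quantile normalisation, centring, the mean of probe sets and the filter on level, a check added after the data were seen. Signals near background limit Mx2, Tlr3 and the interferon genes.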
